A study of Mus musculus with 3 samples.

Results

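Mouse genes for 8 receptors that steer leukocytes were followed through cultured bone marrow cells and through a healing skin graft: Ccr7, Cx3cr1, Cxcr2, Cxcr4, Ccr6, Cxcr6 and Xcr1, which bind chemokines, and S1pr1, which binds the lipid sphingosine 1-phosphate (S1P). They were chosen by symbol, with earlier results of these data known, and all 8 were found among the 31053 genes counted. The set was put together as receptors outside the cluster of Ccr2 on chromosome 9, and the annotation goes against that description for a pair of them. Cxcr6 and Xcr1 lie 290 kb and 240 kb from Ccr2, in the same run of receptor genes that holds Ccr9, Ccr1 and Ccr3. Cx3cr1 lies on the same chromosome, 4.03 Mb from Ccr2. The other members lie on chromosomes 1, 3, 11 and 17, so the set is called by its genes here.

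The study asked how the host responds to human skin placed in mice, and set macrophages from the grafts beside macrophages grown in culture. Single-cell RNA was counted in 3 libraries, 1 for each condition. Bone marrow of C57/BL6 mice was grown with GM-CSF for 7 days, after which the cells were left untreated (Co-Mac) or were given 1,25-dihydroxycholecalciferol, the active form of vitamin D3, at 1 μM for 24 h (VD-Mac). Human split-thickness skin was implanted subcutaneously into wild-type C57BL6/J mice and explanted on day 14 (hSTSG). The grafts of 5 mice were digested with collagenase IV and pooled with no map from cells to mice used here, so they count as 1 sample. Any human cells left in the graft could not be told apart, because the gene list holds mouse genes only. Whether human RNA was counted under mouse genes was not tested. The study took a fall of human Alu DNA by day 14 as a sign that the human cells had gone. The labels give neither age nor sex.

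Chemokine receptors and the S1P receptors are G protein-coupled receptors that turn a gradient of ligand into directed movement. Ccr7 takes mature dendritic cells (DCs) and naive T cells into lymph nodes, and S1pr1 lets lymphocytes leave them towards the higher S1P of blood and lymph. Cxcr2 draws neutrophils to inflamed tissue, Cxcr4 holds leukocytes and their precursors near stromal Cxcl12, and the remaining receptors mark particular types of monocyte, DC or T cell.

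After barcodes under 300 genes, of 100000 or more UMIs, or with 10% or more of their UMIs from mitochondrial genes were dropped, 7257 cells were kept in Co-Mac, 8825 in VD-Mac and 2144 in hSTSG. A UMI is a tag that counts an RNA molecule once, whatever the number of its PCR copies. The kept cells held 132574308, 116461484 and 22646544 UMIs, with medians of 15804, 12089 and 6637.5 per cell. Levels are given in CPM, a gene's UMIs scaled to 1000000 UMIs of the same cells, with exact 95% Poisson intervals in parentheses, and ratios between the cultures with exact conditional binomial intervals. With 1 library per condition there were no replicates and no test, and every interval and every limit set by a count of 0 covers counting error only. Such a limit is the value that 3 UMIs, or 3 cells for a share, would give, which lies below the upper end of the exact interval. Between libraries, 15 barcodes were shared by the kept cells of the cultures, 3 by Co-Mac and hSTSG, and 6 by VD-Mac and hSTSG.

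Cells were sorted into types by marker genes that include none of the members, and each name carries "-like" because it rests on those markers alone. In Co-Mac, 29.9% of the cells (28.8 to 31.0%, Clopper-Pearson) were macrophage lineage-like, 39.0% mature DC-like, 5.26% like conventional DCs of type 2 (cDC2) and 3.75% mature neutrophil-like. VD-Mac held 27.1% macrophage lineage-like cells (26.2 to 28.0%), 41.6% mature DC-like, 0.827% cDC2-like and 5.76% mature neutrophil-like. The cultures labelled as macrophages thus held more mature DC-like than macrophage lineage-like cells. In hSTSG, 956 cells (44.6%) were macrophage lineage-like, 498 mature neutrophil-like, 164 T cell-like, 83 γδ T cell-like, 139 fibroblast-like, 51 cDC2-like, 34 mature DC-like, 25 endothelial cell-like and 10 like conventional DCs of type 1 (cDC1). Cells with several marker sets of nearly equal score and cells with none made up 11.4% and 8.35% of Co-Mac and 7.52% and 15.1% of VD-Mac, and their UMIs count in the levels over all kept cells only. Of the cDC2-like cells, 37.2% in Co-Mac and 46.6% in VD-Mac scored within 0.10 of another type. For cDC1-like cells these shares were 41.2% and 33.0%, and for macrophage lineage-like cells 19.7% and 14.3%. Ratios within the cDC2-like and cDC1-like types may thus compare unlike cells.

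**Figure D1:**
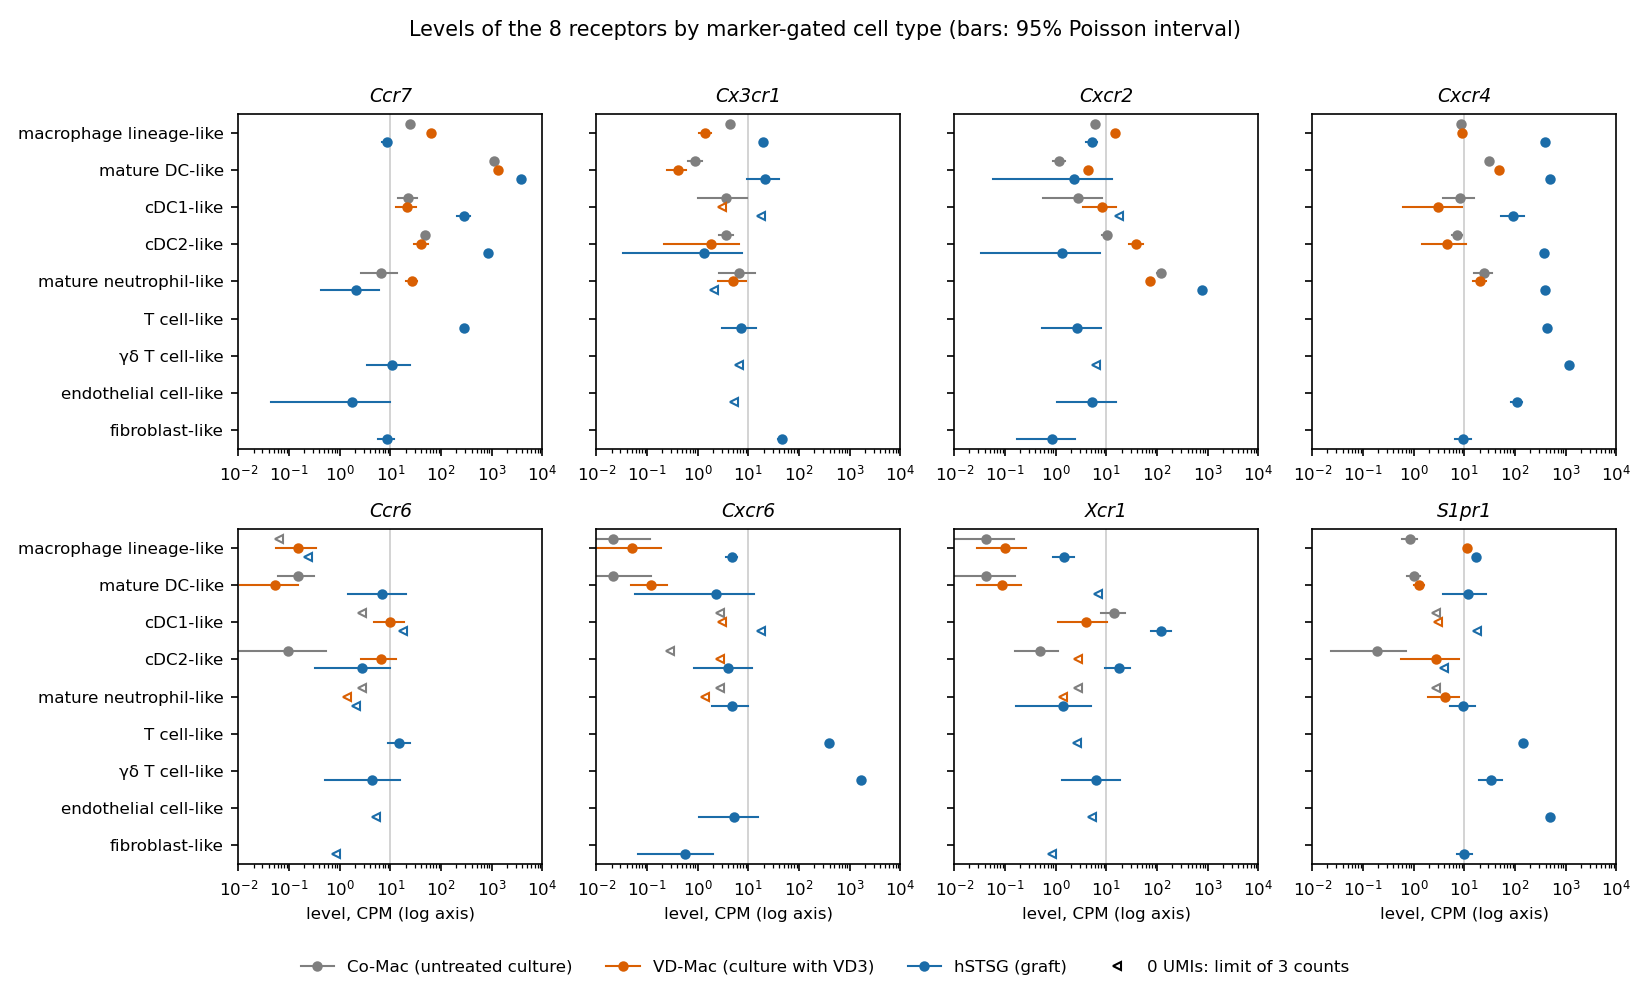
Level of each receptor in CPM (log axis) in marker-gated types with at least 10 cells, for Co-Mac, VD-Mac and hSTSG, with 95% Poisson intervals as bars and open triangles for the limit set by 0 UMIs; the grey line marks 10 CPM. Ccr7 peaked in mature DC-like cells of all 3 libraries, while Cxcr6 had 12 and 16 UMIs in the whole of the cultures and 1668 CPM in γδ T cell-like cells of the graft.

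Among the ligands, those of Ccr7 and Ccr6 were undetected in the cultures, where Ccl19, Ccl21a and Ccl20 had 0 UMIs in both, which allows up to 0.02263 CPM in Co-Mac and 0.02576 in VD-Mac. In the graft, 196 of the 201 UMIs of Ccl19 came from fibroblast-like cells, at 54.82 CPM (47.42 to 63.06), and all 5 of Ccl21a from endothelial cell-like cells. Cxcl12, the ligand of Cxcr4, had 1423 CPM (1384 to 1463) in fibroblast-like and 560.9 CPM (501.4 to 625.5) in endothelial cell-like cells. Cxcl16, the ligand of Cxcr6, had 825.5 CPM (741.8 to 916.0) in mature DC-like and 414.2 CPM (403.2 to 425.5) in macrophage lineage-like cells of the graft. For Cxcr2, Cxcl2 reached 25662 CPM (25402 to 25924) in mature neutrophil-like cells and Cxcl5 616.5 CPM (591.0 to 642.8) in fibroblast-like cells. Ligand and receptor were thus measured together in the graft for Ccr7, Cxcr4, Cxcr6 and Cxcr2, with Cxcl2 high in the same type as Cxcr2 and the other ligands named highest in other types than their receptor.

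Of the 8 receptors, 3 had at least 10 CPM in 1 of the cultures and at least 20 UMIs over both when all kept cells were pooled: Ccr7, Cxcr2 and Cxcr4. A gene past these minimums was called changed at a difference of 2-fold or more. By that rule 0 of the 3 were called, while 6.79% of 7732 genes were, 167 of them higher with VD3 and 358 lower. With 1 CPM added to each level, the median log2 ratio of the 3 was 0.74 and that of all 7732 genes -0.10. With ratios centred on the median of all genes the split was 206 higher and 281 lower. In macrophage lineage-like cells 3 members passed the minimums, Ccr7, Cxcr2 and S1pr1, and each of the 3 was called higher with VD3. Of 7797 genes, 7.81% were called either way and 3.21% higher. The members were chosen with earlier results of these data known, so these shares give scale only and nothing is concluded from them. Each of these calls ended under some alternative, given with its gene below. Cxcr2 and S1pr1 reached 10 CPM in VD-Mac alone, so that they could pass there only through the higher culture, and the same holds for Cxcr2 over all kept cells. Among mature DC-like cells 0 of 2 members (Ccr7 and Cxcr4) were called and 4.90% of 6838 genes, and among mature neutrophil-like cells 1 of 3 (Ccr7) and 7.06% of 7744 genes. That Ccr7 call, too, passed the minimum level through VD-Mac alone.

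**Figure D2:**
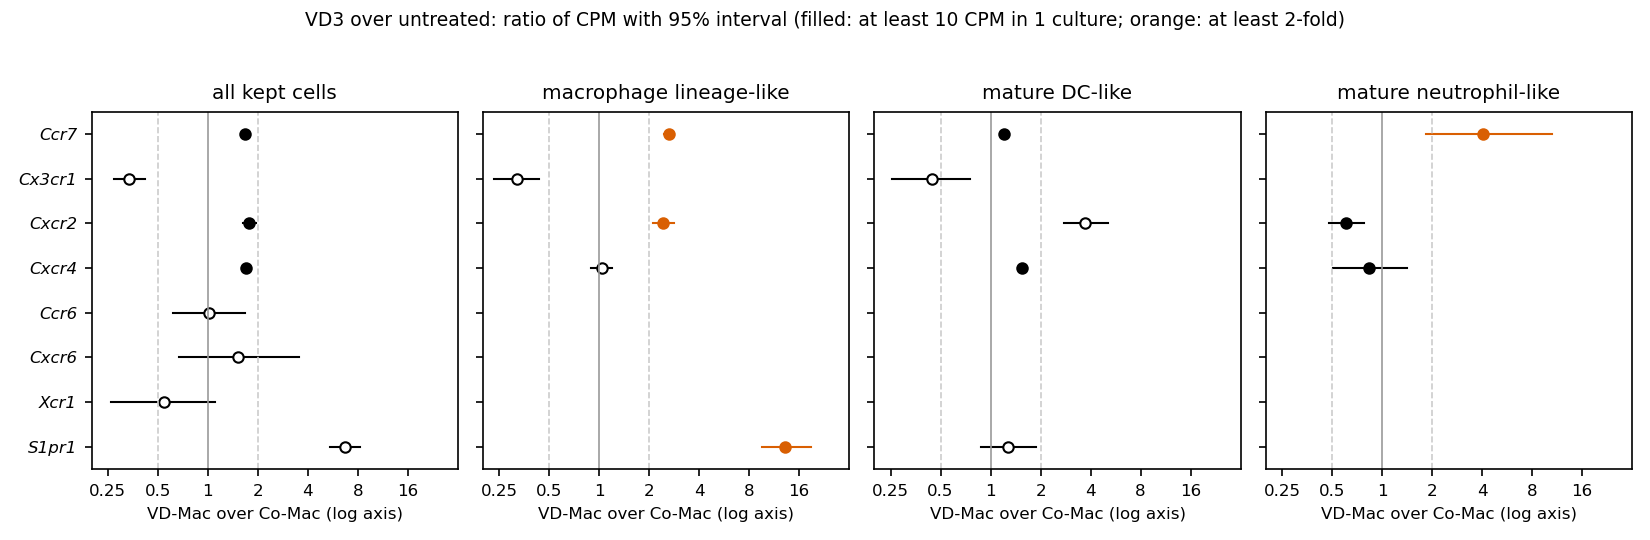
Ratio of CPM in VD-Mac over Co-Mac (log axis) with 95% intervals, for members with at least 20 UMIs over both cultures, in all kept cells and in 3 gated types; filled points reach 10 CPM in a culture, orange points were called changed. S1pr1 stood 13.2 times higher in macrophage lineage-like cells, and 1.27 times higher in mature DC-like cells, with an interval that included 1.

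S1pr1 (ENSMUSG00000045092, chromosome 3 of GRCm38, 115710433 to 115715072, minus strand) rose most of the called members. It had 40 UMIs in the macrophage lineage-like cells of Co-Mac, 0.8400 CPM (0.6001 to 1.144), and 433 in VD-Mac, 11.11 CPM (10.09 to 12.20). The ratio was 13.2 (9.55 to 18.8), from close to absence to just above the minimum level. In cycling cells of the lineage, those with at least 3 markers of division, the level was 0.6226 CPM in Co-Mac and 11.50 in VD-Mac, and in the other cells of the lineage 1.176 and 10.64. Both subsets thus showed it. Without the cells of the lineage that carried at least 3 mature DC markers the levels were 0.6996 and 11.16 CPM, a ratio of 15.9, and over the 8 alternatives tried the ratio ran from 9.385 to 16.95. With a limit of 5% mitochondrial UMIs the levels were 0.6406 and 7.560 CPM, a ratio of 11.8 (5.19 to 31.4), and the higher level then lay below the minimum for a call. Cells of the lineage with an S1pr1 UMI made up 1.57% in Co-Mac and 11.9% in VD-Mac at median depths of 19635 and 14657.5 UMIs, and 0.378% (0.163 to 0.744%) and 2.00% (1.46 to 2.67%) after each cell was thinned to 2000 UMIs. Mature DC-like cells, which served as background, had 1.52% in Co-Mac and 1.61% in VD-Mac at medians of 14600 and 13783 UMIs, and 0.284% (0.123 to 0.559%) and 0.109% (0.0298 to 0.280%) after thinning. The untreated macrophage share thus lay at background and the treated one above it.

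Mature DC-like cells had 1.012 CPM of S1pr1 (0.7437 to 1.346) in Co-Mac and 1.289 in VD-Mac, and the interval of the ratio of 1.27 (0.872 to 1.88) included 1. Mature neutrophil-like cells had 0 UMIs in Co-Mac and 9 in VD-Mac, 4.149 CPM. Over all kept cells S1pr1 had 0.8071 CPM (0.6614 to 0.9753) and 5.392 CPM (4.979 to 5.831), a ratio of 6.68 (5.44 to 8.28) that was not called because both levels were under 10 CPM. Macrophage lineage-like cells held 68.9% of the S1pr1 UMIs of VD-Mac and 37.4% of those of Co-Mac. The 284 cells of the lineage with an S1pr1 UMI in VD-Mac had 89.61 CPM of Ccr7 (82.80 to 96.84) and the 2108 others 57.70 (55.09 to 60.40), at median depths of 22208 and 13688 UMIs. Cxcr2 stood the other way, at 10.10 CPM (7.900 to 12.72) and 15.57 (14.23 to 17.00), and the part of depth in either difference was not tested.

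In the graft, S1pr1 had its highest level, 493.2 CPM (437.5 to 554.0), in the 25 endothelial cell-like cells, where it maintains the vessel barrier. It was found in 24 of them, and in 52.0% (31.3 to 72.2%) after thinning, at a median depth of 12670 UMIs. T cell-like cells followed at 146.7 CPM (125.2 to 170.9) with 22.2% of thinned and 37.8% of unthinned cells, at a median of 5617.5 UMIs. Fibroblast-like cells had 1.47% of thinned and 16.5% of unthinned cells at 25429 UMIs, at 10.07 CPM (7.053 to 13.94). Vessels and T cells therefore carried S1pr1 above that low level.

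The intervals of NK cell-like cells (85.41 CPM from 10 UMIs) and B lineage-like cells (72.56 CPM) overlapped each other, and that of the NK cell-like cells also reached the T cell-like interval. In each of them 1 cell held many of the UMIs, 7 of the 10 of the NK cell-like and 8 of the 21 of the B lineage-like cells, and the levels without it were 29.01 and 47.15 CPM. The B lineage-like cells of hSTSG were rich in plasma cell markers, which were gated with those of B cells and summed to 189090 CPM beside 1382 CPM for the B cell markers. γδ T cell-like cells had 34.13 CPM of S1pr1 (19.51 to 55.42), below the T cell-like level beyond counting error. Cd69, whose protein binds S1pr1 and takes it from the cell surface, stood the other way, at 1252 CPM (1153 to 1358) in γδ T cell-like and 265.9 CPM (236.6 to 297.8) in T cell-like cells. Within the macrophage lineage of the graft, the cells nearest to the monocyte markers had 19.50 CPM of S1pr1 (13.80 to 26.76), those nearest to Cd163-type markers 17.75 (13.04 to 23.60) and those nearest to Trem2-type markers 16.98 (14.08 to 20.30). These 3 ranges of the lineage did not differ beyond counting error, and no S1pr1 UMI was found in cDC2-like cells, which allows up to 4.043 CPM.

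Ccr7 (ENSMUSG00000037944, chromosome 11, 99144196 to 99155077, minus strand) was a gene of mature DC-like cells in every library, which held 92.3% of its UMIs in Co-Mac, 93.3% in VD-Mac and 52.8% in hSTSG. In these cells it had 1117 CPM (1107 to 1127) in Co-Mac and 1349 CPM (1340 to 1359) in VD-Mac. The ratio of 1.21 (1.19 to 1.22) exceeded counting error and was well short of 2. Single mature DC-like cells spread from 491.8 CPM at the 10th percentile through a median of 1133 to 1919 at the 90th in Co-Mac, and from 545.9 through 1370 to 2309 in VD-Mac. The cells of both cultures thus overlapped over most of their range. After thinning, 85.3% (84.0 to 86.6%) of mature DC-like cells of Co-Mac and 88.2% (87.2 to 89.3%) of those of VD-Mac had a Ccr7 UMI, and 98.8% and 98.4% before it, at median depths of 14600 and 13783 UMIs. Mature neutrophil-like cells, taken as background, had 1.94% and 3.96% after thinning and 2.57% and 5.91% before it, at 2201 and 2659.5 UMIs.

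Pooled over all kept cells, Ccr7 had 423.7 CPM (420.2 to 427.2) in Co-Mac and 713.1 CPM (708.3 to 718.0) in VD-Mac, a ratio of 1.68 (1.66 to 1.70). Mature DC-like cells supplied 35.0% of all UMIs of Co-Mac and 49.3% of those of VD-Mac. With the types weighted as in Co-Mac the Ccr7 ratio was 1.274, close to the ratio within mature DC-like cells. The summed level of the 11 mature DC markers, all of them detected, went the other way within these cells, from 6217 to 4267 CPM, and the most abundant, Ccl22, from 3123 to 1496 CPM. Of the 11, 9 fell, while Il4i1 rose from 545.0 to 974.4 CPM and Ly75 from 58.29 to 64.86 CPM.

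Ccr7 in macrophage lineage-like cells rose from 24.28 CPM (22.90 to 25.72) in Co-Mac to 63.54 CPM (61.06 to 66.09) in VD-Mac, a ratio of 2.62 (2.44 to 2.81). The UMIs were concentrated, with 93.5% of them in Co-Mac and 94.5% in VD-Mac in the richest 10% of the cells. The 11 mature DC markers were all detected in these cells and summed to 256.0 CPM in Co-Mac and 445.9 in VD-Mac, led by Socs2 at 115.2 and 254.6 CPM. As a share of the level in mature DC-like cells, Ccr7 stood at 2.17% in Co-Mac and 4.71% in VD-Mac, beside 1.68% and 3.83% for Fscn1, 2.56% and 5.30% for Ccl22, and 1.77% and 4.23% for Serpinb6b. Cacnb3, Zmynd15, Nudt17 and Apol7c rose by smaller factors than Ccr7 on that scale, the last from 1.74% to 2.95%, Socs2 (17.6% to 46.3%), Il4i1 (2.21% to 5.75%) and Tmem150c (1.33% to 4.12%) by larger ones, and Ly75 fell from 13.8% to 8.94%. Within the lineage itself Il4i1 rose from 12.03 to 56.00 CPM, more than Ccr7 in proportion, while Ccl22 had 79.95 and 79.21 CPM and Fscn1 9.870 and 12.75 CPM. Without the cells of the lineage that had at least 3 mature DC markers, a condition chosen after the values were seen, Ccr7 had 5.247 CPM in the 1746 remaining cells of Co-Mac and 7.389 in the 2010 of VD-Mac, and the call ended at a ratio of 1.41 (1.14 to 1.74). That condition removes Ccr7-rich cells by its make-up, since Ccr7 is itself a gene of mature DC-like cells. Its markers Socs2 and Il4i1 also rose with VD3 in the lineage, so nothing is concluded from the end of the call.

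Among mature neutrophil-like cells Ccr7 rose from 6.522 CPM (7 UMIs) to 26.27 CPM (57 UMIs), a ratio of 4.03 (1.83 to 10.5), but 21 of the 57 UMIs lay in 1 cell. These cells served above as background for Ccr7, whose level over all kept cells went from 423.7 to 713.1 CPM. The part of background in the rise was not tested. Without the richest cell of each culture the ratio was 2.97, and over the 7 alternatives tried it ran from 1.281 to 4.690, with 5 of them at 2-fold or more. In cDC2-like cells the level was 47.83 CPM in Co-Mac and 40.27 in VD-Mac, and in cDC1-like cells 22.20 and 21.11, with ratio intervals that included 1 in both types. Single cells weighed heavily in both, with 17 of the 44 UMIs of the cDC2-like cells of VD-Mac in 1 cell. Without the richest cell of each culture the levels were 43.14 and 24.96 CPM in cDC2-like cells, a ratio of 0.5787, and 12.49 and 11.16 CPM in cDC1-like cells. Over the 7 alternatives the cDC2-like ratio ran from 0.5112 to 1.909 and the cDC1-like ratio from 0.3917 to 2.337, each on both sides of 1.

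In the graft Ccr7 reached 3723 CPM (3543 to 3910) in the 34 mature DC-like cells, with a UMI in 32 of 32 thinned cells. The cDC2-like cells came next at 857.2 CPM (791.8 to 926.4), with 39.2% of thinned and 52.9% of unthinned cells at a median of 14376 UMIs. Single cDC2-like cells had a median of 78.34 CPM and 3263 CPM at the 90th percentile, and the richest 10% held 55.5% of the UMIs. T cell-like cells had 289.0 CPM of Ccr7 (258.4 to 322.2), an interval that overlapped those of the B lineage-like cells (366.3 CPM) and the 10 cDC1-like cells (284.5 CPM), where 24 of the 49 UMIs lay in 1 cell and the level without it was 164.1 CPM. They had a UMI in 17.3% of thinned and 26.2% of unthinned cells, while mature neutrophil-like cells, as background, had 0.576% and 0.602% at a median of 2340.5 UMIs. Some cells of both the cDC2-like and the T cell-like type thus carried Ccr7 above background in the grafts. At the 90th percentile the cDC2-like cells came near the level of mature DC-like cells, and 8 of the 51 scored within 0.10 of another type. The cDC2-like type is thus named by its gate only and may hold mature DCs. The richest 10% of the T cell-like cells held 81.5% of the Ccr7 UMIs of that type. At the low end, γδ T cell-like cells (10.67 CPM), macrophage lineage-like cells (8.442), fibroblast-like cells (8.391) and mature neutrophil-like cells (2.064) had overlapping intervals except that the neutrophil level lay below that of the macrophage lineage, and 29 of the 30 UMIs of the fibroblast-like cells came from 1 cell. The 43 T cell-like cells with a Ccr7 UMI had 175.7 CPM of S1pr1 and the 121 others 131.1 CPM, a ratio of 1.34 (0.969 to 1.84), so a difference was not detectable.

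Cxcr2 (ENSMUSG00000026180, chromosome 1, 74153989 to 74161246, plus strand), the receptor for the neutrophil-attracting CXC chemokines, was highest in mature neutrophil-like cells of each library. Their level was 120.2 CPM (100.4 to 142.8) in Co-Mac, 73.29 CPM (62.34 to 85.61) in VD-Mac and 787.2 CPM (742.2 to 834.1) in hSTSG. The ratio between the cultures was 0.610 (0.480 to 0.775), short of a call, and the graft stood above both. After thinning, 25.8% of these cells in Co-Mac, 16.5% in VD-Mac and 62.0% in hSTSG had a Cxcr2 UMI, and 33.1%, 23.2% and 69.9% before thinning. In the fibroblast-like cells of the graft, as background, 0 of 136 thinned cells had one, which allows up to 2.21%, and 1.44% of unthinned cells did.

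Outside neutrophils, Cxcr2 rose in macrophage lineage-like cells from 6.006 CPM (286 UMIs) to 14.57 CPM (568 UMIs), a ratio of 2.43 (2.10 to 2.81). The call did not outlast a limit of 5% mitochondrial UMIs, which gave 10.80 and 13.28 CPM and a ratio of 1.23 (0.894 to 1.68), or the mean over cells, which gave a ratio of 1.135. Cycling cells of the lineage had 5.499 CPM in Co-Mac and 18.05 in VD-Mac, and the other cells 6.789 and 10.42, ratios of 3.28 and 1.53. By range, Cxcr2 rose from 3.958 to 13.47 CPM in the Trem2-type range and had 40.92 and 36.61 CPM in the monocyte range, a ratio of 0.895 (0.643 to 1.24). The monocyte range of the cultures also carried mature neutrophil markers, at sums of 49410 and 63441 CPM beside 3685 and 3238 CPM for the monocyte markers. Its top genes over other cells of VD-Mac included the neutrophil markers S100a9, S100a8 and Mmp9 and the monocyte markers Ly6i and Hp. The range is thus named by its gate only in the cultures and may hold neutrophils. The mature neutrophil markers, 9 of 10 detected in Co-Mac and 10 of 10 in VD-Mac, summed to 4552 and 4818 CPM in the lineage, led by S100a8 at 2882 and 2852 CPM, with Retnlg at 0 in Co-Mac. Their part in the Cxcr2 rise was not tested. In cDC2-like cells Cxcr2 had 10.12 CPM in Co-Mac and 39.36 in the 73 cells of VD-Mac, a ratio of 3.89 (2.66 to 5.59) that turned to 0.4402 under the limit of 5%. Mature DC-like cells had 1.163 and 4.302 CPM, a ratio of 3.70 (2.75 to 5.06) with both levels too low for a call, and 1.35 (0.698 to 2.63) under the limit of 5%. Over all kept cells the levels were 6.449 CPM (6.024 to 6.896) and 11.45 CPM, and the ratio of 1.78 (1.63 to 1.94) became 0.9835 as a mean over cells. The direction of Cxcr2 over whole cultures thus depended on how cells were weighted.

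In the graft, 92.3% of the Cxcr2 UMIs came from mature neutrophil-like cells. The monocyte range of the macrophage lineage had 12.32 CPM (7.891 to 18.32), above the 2.830 CPM (1.728 to 4.370) of the Trem2-type range and the 3.020 CPM (1.304 to 5.952) of the Cd163-type range, which overlapped each other. Among mature neutrophil-like cells, the 348 with a Cxcr2 UMI had 379.6 CPM of Cxcr4 and the 150 without one 454.9 CPM, a ratio of 0.834 (0.694 to 1.01). Cxcr4 takes neutrophils back to bone marrow as they age, and a difference of its level by Cxcr2 was not detectable at this depth.

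Cxcr4 (ENSMUSG00000045382, chromosome 1, 128588199 to 128592293, minus strand) was low in the cultures and widespread in the graft. Mature DC-like cells had 31.25 CPM (29.66 to 32.90) in Co-Mac and 48.47 CPM (46.69 to 50.31) in VD-Mac, a ratio of 1.55 (1.46 to 1.65). They held 61.3% of its UMIs in Co-Mac and 79.0% in VD-Mac. Macrophage lineage-like cells had 8.631 and 8.952 CPM and mature neutrophil-like cells 24.23 and 20.28 CPM, with ratios of 1.04 (0.897 to 1.20) and 0.837 (0.504 to 1.42). Only the mature DC-like cells, of these 3 types, thus differed beyond counting error. Over all kept cells Cxcr4 had 17.85 CPM (17.13 to 18.58) and 30.26 CPM (29.27 to 31.27), a ratio of 1.70 (1.61 to 1.79).

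Over all kept cells of the graft Cxcr4 had 341.9 CPM (334.3 to 349.6), with 63.9% of the UMIs in macrophage lineage-like cells. The order of the types named began with γδ T cell-like cells at 1139 CPM (1044 to 1240) and the monocyte range of the macrophage lineage at 657.3 CPM (621.8 to 694.3), which did not overlap. Cells of the joint gate of T and NK cells without a finer type are left out of this order. That gate held 1207 Cxcr4 UMIs, 534 of them γδ T cell-like, 485 T cell-like and 63 NK cell-like. By the UMIs that remain, the level of the cells left out lay between those of γδ T cell-like cells and the monocyte range. NK cell-like (538.1 CPM), mature DC-like (493.0), T cell-like (431.3), mature neutrophil-like (397.7), cDC2-like (373.3) and B lineage-like cells (324.8) each overlapped the next in the order, and the first of them also overlapped the monocyte range. The Trem2-type range had 340.0 CPM (326.5 to 353.8) and the Cd163-type range 247.3 CPM, and endothelial cell-like cells had 109.4 and cDC1-like cells 92.91 CPM, each from few cells. Within the macrophage lineage Cxcr4 therefore stepped down from the monocyte range through the Trem2-type to the Cd163-type range. A Cxcr4 UMI was found in 67.5% of thinned γδ T cell-like cells (56.3 to 77.4%) and in 79.5% before thinning, at a median of 5520 UMIs. Fibroblast-like cells, which supplied most of the ligand, had 9.510 CPM and a UMI in 2.94% of thinned and 8.63% of unthinned cells.

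Cxcr6 (ENSMUSG00000048521, chromosome 9, 123806475 to 123811760, plus strand), a receptor of tissue-resident and effector T cells, was nearly absent from the cultures, with 12 UMIs in Co-Mac, 0.09052 CPM, and 16 in VD-Mac, 0.1374 CPM. The graft had 75.42 CPM (71.89 to 79.08) over all kept cells. Of the types named, γδ T cell-like cells led with 1668 CPM (1553 to 1789) and T cell-like cells followed with 395.7 CPM (359.8 to 434.2), without overlap. Both came from a joint gate of 286 T and NK cells with 1576 Cxcr6 UMIs, of which they held 782 and 445. Cells of that gate left without a finer type are not ranked here. By the UMIs that remain in the gate, their level lay above that of the γδ T cell-like cells. The lead thus holds among the named types only. Mature neutrophil-like cells (4.817 CPM), macrophage lineage-like cells (4.725) and cDC2-like cells (4.043) overlapped one another far lower. The 17 UMIs of the 15 NK cell-like cells all lay in 1 cell. After thinning, 69.9% (58.8 to 79.5%) of γδ T cell-like and 39.5% (31.9 to 47.5%) of T cell-like cells had a Cxcr6 UMI, and 79.5% and 59.1% before it. Fibroblast-like cells, as background, had 0 of 136 thinned, up to 2.21%, and 1.44% unthinned, so the receptor marked T cell-like and γδ T cell-like cells of the graft.

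The 66 γδ T cell-like cells with a Cxcr6 UMI had 1311 CPM of Cxcr4 (1201 to 1428) and the 17 without one 104.7 CPM (42.10 to 215.8), a ratio of 12.5 (6.03 to 31.3). Their median depths were 5938 and 4186 UMIs, and the part of depth was not tested. A Cxcr4 UMI was found in 60 of the 66 cells with a Cxcr6 UMI and in 6 of the 17 without one. Most cells of this type with Cxcr6 thus also showed Cxcr4. Cxcr6 lies within Fyco1, a gene on the opposite strand, so a count that ignores strand could mix them. Fyco1 had 42.66 CPM in γδ T cell-like and 10.69 CPM in macrophage lineage-like cells of the graft, and 56.10 CPM in mature DC-like cells of Co-Mac, where Cxcr6 had 0.02153 CPM.

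Cx3cr1 (ENSMUSG00000052336, chromosome 9, 119901616 to 120069879, minus strand), the fractalkine receptor of patrolling monocytes and many tissue macrophages, had 2.874 CPM (381 UMIs) in Co-Mac and 0.9703 CPM (113 UMIs) in VD-Mac. The ratio was 0.338 (0.271 to 0.418), and no call was possible because both levels were under 10 CPM. Macrophage lineage-like cells had 4.410 CPM (3.834 to 5.048) and 1.411 CPM (1.063 to 1.836), a ratio of 0.320 (0.233 to 0.432). Mature DC-like cells had 0.9045 and 0.4006 CPM, a ratio of 0.443 (0.254 to 0.754). Under the limit of 5% mitochondrial UMIs the lineage had 4.301 and 3.882 CPM, a ratio of 0.903, and the ratio in mature DC-like cells was 0.644 (0.0583 to 4.49), with 1 inside both intervals. Over all kept cells it was 0.656 (0.446 to 0.948) under that limit. The lower level with VD3 thus stayed beyond counting error over all kept cells and in neither type. Its annotated span overlaps 9 other genes, more than any other member.

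In the graft Cx3cr1 had 18.85 CPM over all kept cells. Macrophage lineage-like cells had 19.05 CPM (16.75 to 21.59) and 57.6% of its UMIs, 42 of 246 of them in 1 cell, without which the level was 15.81 CPM. The Trem2-type range had 23.20 CPM (19.79 to 27.04), the monocyte range 18.47 (12.94 to 25.57) and the Cd163-type range 9.061 (5.806 to 13.48). The upper pair overlapped, and the Cd163-type range overlapped the monocyte range only, but 21 of the 36 UMIs of the monocyte range lay in 1 cell. Without the richest cell of each range the levels were 17.27 CPM in the Trem2-type, 7.784 in the monocyte and 6.497 in the Cd163-type range, so the place of the monocyte range in the order rested on that cell. The 45.59 CPM of fibroblast-like cells rested on 1 cell with 144 of their 163 UMIs, and mature neutrophil-like cells had 0 UMIs, which allows up to 2.064 CPM. In thinned cells a Cx3cr1 UMI was found in 1.48% of the macrophage lineage, at a median depth of 10881 UMIs, and in 0 of 347 mature neutrophil-like cells, up to 0.865%, and in 6.28% and 0% before thinning.

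Xcr1 (ENSMUSG00000060509, chromosome 9, 123852315 to 123862029, minus strand), which marks the cross-presenting type 1 of conventional DCs, was highest in that type in each library. cDC1-like cells held 15 of its 27 UMIs in Co-Mac, 13.88 CPM (7.766 to 22.89), and 4 of its 13 in VD-Mac, 4.021 CPM (1.095 to 10.29). The intervals overlapped, and 3 of the 4 UMIs of VD-Mac lay in 1 cell, without which the level was 1.025 CPM. In the graft the 10 cDC1-like cells had 121.9 CPM (75.49 to 186.4), with a UMI in 7 of them and 10 of the 21 UMIs in 1 cell, without which the level was 78.08 CPM. cDC2-like cells came next with 17.52 CPM (9.329 to 29.96), 12 of the 13 UMIs in the 27 cells that also had a Ccr7 UMI, and macrophage lineage-like cells had 1.472 CPM (0.8860 to 2.298). Its ligand Xcl1 had 48.90 CPM (36.84 to 63.66) in T cell-like and 401.4 CPM (294.9 to 533.8) in NK cell-like cells.

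**Figure D3:**
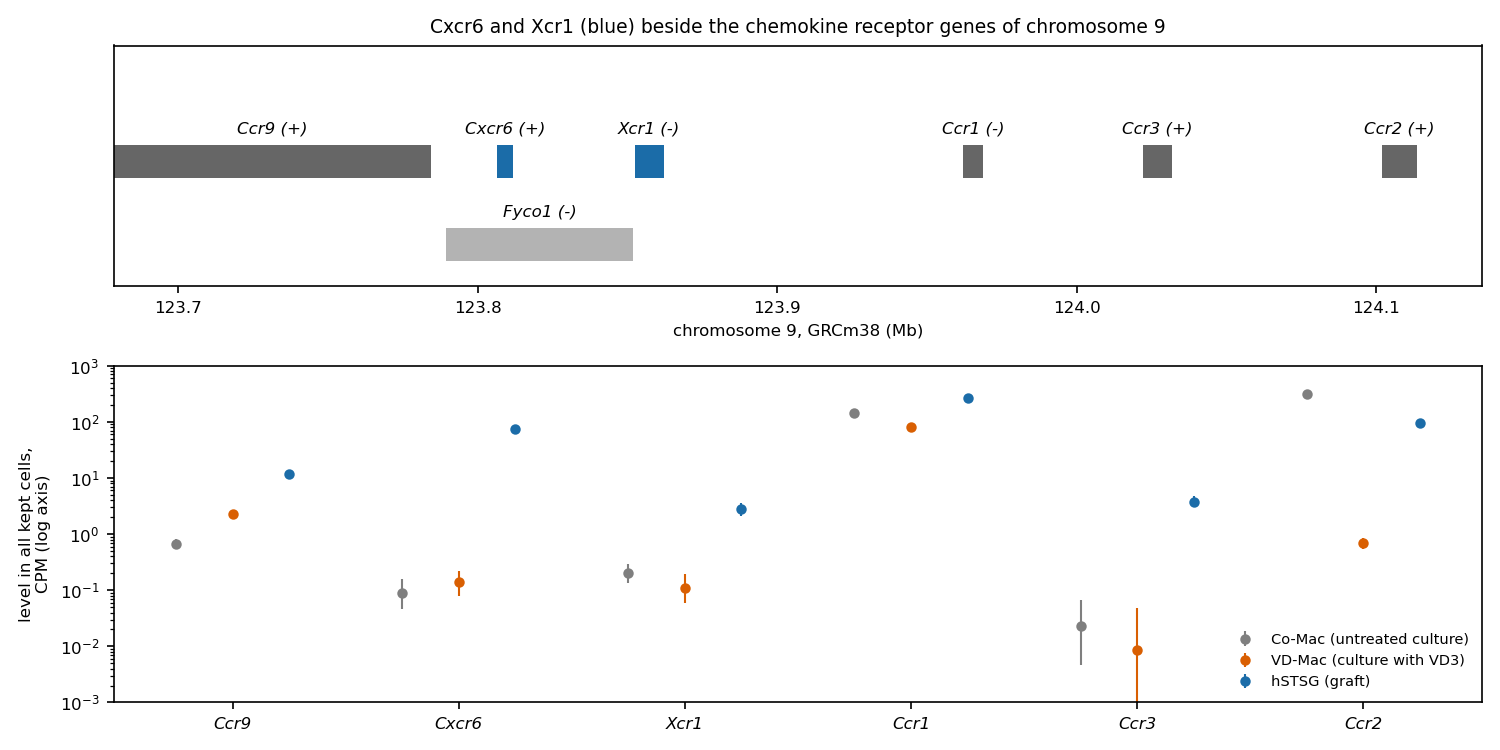
Positions of chemokine receptor genes near Ccr2 on chromosome 9 of GRCm38 in Mb, with Cxcr6 and Xcr1 in blue and Fyco1 beneath, and their levels in CPM (log axis) over all kept cells of the 3 libraries with 95% Poisson intervals. Ccr2 was lower in VD-Mac than in Co-Mac, while Cxcr6 and Xcr1 stayed under 1 CPM in both cultures.

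Ccr6 (ENSMUSG00000040899, chromosome 17, 8236043 to 8257141, plus strand), the receptor for Ccl20 on B cells, some T cells and some DCs, had the fewest UMIs of the graft among the members, 38 in all, 1.678 CPM (1.187 to 2.303). T cell-like cells had 15.12 CPM (8.806 to 24.20), 17 UMIs in 9 cells. The 34.55 CPM of B lineage-like cells came from 10 UMIs in 1 cell, and macrophage lineage-like cells had none, which allows up to 0.2324 CPM. T cell-like cells thus held 9 of the 19 cells with a Ccr6 UMI. The cultures had 0.2791 CPM (37 UMIs) and 0.2834 CPM (33 UMIs). In Co-Mac 29 of the 37 UMIs lay in the 17 B lineage-like cells, 147.5 CPM (98.79 to 211.9), and in VD-Mac 2 UMIs lay in 15 such cells, 20.50 CPM (2.482 to 74.04), too few cells for a comparison. Of the 33 UMIs of VD-Mac, 10 lay in 3 cDC1-like cells, 10.05 CPM (4.820 to 18.49) in that type, and 7 in 6 cDC2-like cells, 6.407 CPM (2.576 to 13.20), beside 0 and 1 UMIs in these types of Co-Mac.

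Other receptors of the same families give a comparison for the members in the same cells. Of 16 other chemokine receptors analysed here, 3 passed the minimums over all kept cells: Ccrl2 was called higher, from 6.230 to 18.37 CPM, Ccr2 was called lower, from 317.7 to 0.6869 CPM, and Ccr1, at 143.3 and 80.69 CPM, was not called. Ccrl2 reached 10 CPM in VD-Mac alone and Ccr2 in Co-Mac alone, each through the culture where it was higher. Among the other S1P receptors, S1pr2 was the 1 of 4 that passed, and it fell from 13.97 to 6.509 CPM where S1pr1 stood at 0.8071 and 5.392 CPM. In macrophage lineage-like cells S1pr2 fell from 18.33 CPM (17.14 to 19.59) to 8.362 CPM (7.479 to 9.321), while S1pr1 rose. In mature DC-like cells S1pr3 fell from 12.79 to 4.703 CPM. Of 10 receptors for other attractants 8 passed over all kept cells, 0 were called higher and 3 lower: C3ar1 from 28.44 to 8.475 CPM, Fpr2 from 60.77 to 13.60 CPM and Gpr183 from 19.05 to 5.100 CPM. Beside these lists, 2.16% of all 7732 genes were called higher over all kept cells and 4.63% lower. Of the genes named as falling, S1pr2, S1pr3, C3ar1 and Gpr183 reached 10 CPM in Co-Mac alone, so that they could pass only through the culture where they were higher.

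The ligands that were called in the cultures were all lower with VD3. Over all kept cells 4.63% of all 7732 genes were called lower and 2.16% higher. Of 13 ligands of the members, 6 passed over all kept cells, 0 were called higher and 3 lower, all of them ligands of Cxcr2: Cxcl2 from 86.69 to 34.07 CPM, Cxcl3 from 195.1 to 82.57 CPM and Ppbp from 31.14 to 1.443 CPM, which passed through Co-Mac alone. In macrophage lineage-like cells the same genes fell, Ppbp from 63.94 to 3.309 CPM, while Cxcr2 itself rose. Cxcl16 was level over all kept cells, at 318.8 and 329.1 CPM. Cx3cl1 had 61.01 CPM in mature DC-like cells of Co-Mac and 44.74 in those of VD-Mac.

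Downstream of the receptors, 19 of 19 genes of signalling and trafficking passed over all kept cells and 2 were called, both higher, beside 6.79% of all genes called either way. Rac2, a GTPase of leukocyte movement, rose from 215.5 to 449.1 CPM, and Cd69 from 28.43 to 81.29 CPM. In macrophage lineage-like cells, where S1pr1 rose, Cd69 rose from 20.03 CPM (18.78 to 21.35) to 114.7 CPM (111.3 to 118.1) and Rac2 from 276.5 to 681.7 CPM. Klf2, a transcription factor known to drive S1pr1 in T cells, had 43.22 and 76.08 CPM there and was not called. The median log2 ratio of the 19 genes, with 1 CPM added to each level, was 0.13 in that lineage. Of 7 genes of S1P synthesis, breakdown and export, 3 passed over all kept cells and 0 were called. The transporter Spns2, which releases S1P from endothelium, had 90.30 CPM (67.44 to 118.4) in endothelial cell-like cells of the graft, the type with the highest S1pr1.

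Likeness was read as Pearson's r of log2(CPM + 1) over the 17 types of the 3 libraries with at least 50 cells, among 11310 genes. It is a description without a test, since the types share libraries and depth. The 25 endothelial cell-like, 34 mature DC-like and 10 cDC1-like cells of the graft were too few to enter. S1pr1, Ccr7 and Xcr1 were highest in these types, in that order. Cxcr6 came closest to Gzmb (r = 0.997), Il2rb (0.992) and Sh2d2a (0.990), and Cxcr4 to Mpp7 (0.933), Gm11696 (0.930) and Epc1 (0.922). Ccr7 came closest to Mkl1 (0.912), Stard10 (0.905) and Tnfsf4 (0.877), S1pr1 to Maf (0.884), Dusp14 (0.881) and Ifi47 (0.861), and Cxcr2 to Slc40a1 (0.876), Armc3 (0.868) and Gm31718 (0.866). The remaining members were matched less firmly, since Ccr6 and Xcr1 had few UMIs and the top type of Cx3cr1 rested on 1 fibroblast-like cell. Ccr6 came closest to Kbtbd11 (0.903), Vamp1 (0.876) and Lpcat4 (0.869), Xcr1 to Slc25a20 (0.868), Sema4f (0.853) and Gcnt2 (0.850), and Cx3cr1 to Calu (0.866), Map3k6 (0.851) and Tmem9 (0.833). Among the members themselves the highest r were 0.78 for Cxcr4 and Cxcr6 and 0.75 for Cxcr6 and S1pr1. The lowest was -0.46 for Ccr7 and Cxcr2. Cxcr6 was far higher in T cell-like and γδ T cell-like cells than elsewhere. Its r values rested largely on that pair of types, within which Cxcr6 and S1pr1 stood in opposite order.

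Promoters of 6 members, all but Ccr7 and S1pr1, were at hand in the RefSeq table of GRCm38.p6, from 250 bases before to 50 after the start, and were searched for the half-sites to which the vitamin D receptor binds, AGGTCA and AGTTCA, on either strand. The direct repeat of the first, with any 3 bases between its copies, matched 2 of 32851 promoters and 0 of the members. Single half-sites are common, with AGGTCA in 16.3% and AGTTCA in 14.0% of all promoters. AGGTCA matched Cxcr2 and Ccr6, and AGTTCA matched Cxcr2 and Xcr1. The promoter of Cxcr2 is shown because it was the 1 member called with VD3 whose promoter could be read, at chr1:74153744-74154043 on the plus strand. Capitals mark the half-sites at bases 43 to 48, where AGGTCA lies on the minus strand, 246 to 251 and 287 to 292, and binding was not measured.

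Cxcr2 promoter: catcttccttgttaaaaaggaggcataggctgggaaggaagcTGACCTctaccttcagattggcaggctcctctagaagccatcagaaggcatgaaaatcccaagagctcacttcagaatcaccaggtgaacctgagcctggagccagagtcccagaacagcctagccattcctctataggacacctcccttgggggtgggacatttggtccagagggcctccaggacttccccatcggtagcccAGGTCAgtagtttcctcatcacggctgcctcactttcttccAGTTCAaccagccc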

How the data were processed

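The authors deposited raw UMI counts for each mouse gene and barcode of 3 droplet libraries, with no scaling applied, from Cell Ranger 3.1.0. The filters of the study's methods were applied here with the minimum of 300 transcripts read as genes, and UMIs of hashtag antibodies were left out. Read as UMIs, it kept 7261, 8834 and 2312 cells. The 8 members and the gene lists were chosen with earlier results of these data known. A cell's score for a marker set was the mean, over its markers, of log(1 + UMIs per 10000 UMIs) divided by the 90th percentile of that marker and limited to 1. A cell took the type with the highest score if at least 3 markers were detected and no other type scored within 0.05. Macrophage and monocyte sets were joined as the macrophage lineage, and B cell and plasma cell sets as the B lineage. No doublet caller was run. Shares of cells were also taken after thinning each cell to 2000 UMIs (seed 20), with shallower cells left out.

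All members were named, along with list genes that were called or are partners of a member, and the 3 genes most like each member. Promoter sequences are from RefSeq, and positions from GENCODE M21, which held 31011 of the 31053 gene identifiers. The submitters' notes name mm9 and the study's methods name the human genome GRCh38. Neither was used, since the identifiers are of mouse Ensembl genes and the sources disagree. Alternatives changed the cell filters, gate rule, scaling, weights of cells and types, and call rule, and 5 more, which left out single cells, shared barcodes or cells with mature DC markers, were added after seeing the data. Calculations used Python 3.11.15 with numpy 2.4.6, pandas 2.3.3 and scipy 1.17.1, and figures matplotlib 3.10.9.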

Additional observations from a re-analysis of the deposited data

Results flagged for a closer look

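The graft library holds counts that no comparison above uses. Its 20 features for hashtag antibodies carried 1195935 UMIs, while those of the cultures carried 0. The hashtags were not used to divide the cells, because no map from hashtag to mouse is at hand, and receptor levels are given for the pool of mice.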

How the results depend on the processing

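Over all kept culture cells the ratio of VD-Mac over Co-Mac under the main settings was 1.683 for Ccr7, 1.776 for Cxcr2, 1.696 for Cxcr4 and 6.681 for S1pr1. With fewer than 5% mitochondrial UMIs, which kept 3125, 3619 and 1779 cells, they were 1.542, 1.314, 1.325 and 4.927, and as means over cells 1.285, 0.9835, 1.212 and 4.729. Centred on the median of all genes, Ccr7 was 1.806 and Cxcr4 1.819. With the type shares of Co-Mac, Ccr7 was 1.274, Cxcr2 2.235 and Cxcr4 1.406, and without the 5% of cells with the most UMIs Ccr7 was 1.582.

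In macrophage lineage-like cells the ratio of Ccr7 (2.617) was 2.193 under the limit of 5%, 2.301 as a mean over cells, 2.436 without the deepest cells, 2.140 with cells of several gates kept, and 1.408 without cells with mature DC markers. Cxcr2 (2.426) was 1.230 under the limit of 5%, 1.135 as a mean over cells and 2.850 with 1 more marker per gate, and S1pr1 (13.22) was 9.385 as a mean over cells. In mature DC-like cells Ccr7 (1.208) was 1.184, 1.188, 1.239 and 1.222 under the first 4 of these, and Cxcr4 (1.551) was 1.323 under the limit of 5%. In cDC2-like cells Cxcr2 turned to 0.4402 under that limit.

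In the graft, Cx3cr1 in the macrophage lineage was 15.66 CPM under the limit of 5%, 22.24 without the deepest cells and 15.81 without its richest cell. Cxcr2 in neutrophils was 731.8 CPM with at least 1000 genes per cell, and S1pr1 in endothelium 563.0 CPM under the limit of 5% and 579.5 without the deepest cells.

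The members called numbered 3, 3, 1 and 2 (all kept, macrophage lineage-like, mature DC-like and neutrophil-like cells) at 1.5-fold, compared with 0, 3, 0 and 1. Of all genes, 1449 of 7732, 1585 of 7797, 948 of 6838 and 1625 of 7744 were called at 1.5-fold, in the same order. With no minimum level 2 members were called in all kept cells, 4 in the macrophage lineage, where Cx3cr1 was added as lower, and 2 in mature DC-like cells. All genes called there were 1946 of 14318, 1749 of 12620 and 1317 of 12915. At 3-fold 1 member was called in the macrophage lineage, beside 250 of 7797 genes. At 50 CPM 1 was called there, beside 285 of 3020 genes, and 0 in neutrophils, beside 112 of 3017. With 1 more marker per gate the macrophage lineage held 27.72% of Co-Mac and 23.32% of VD-Mac, neutrophils 2.935% and 4.363%, and cDC2-like cells 0.6459% of VD-Mac. The cause of these shifts was not tested. Of the values of other members and types, 5 over all kept cells, 16 within culture types and 27 in the graft also moved past the interval of the main value, while 31, 69 and 203 did not, and none besides Cxcr2 in cDC2-like cells turned a call around. No paired analysis was possible because each condition is 1 library. Depth limits the rare types, such as the 68 and 88 cDC1-like cells of the cultures, where Xcr1 had 15 and 4 UMIs.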

Other observations

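Among mature neutrophil-like cells of the cultures, 3 list genes were called besides Ccr7 in the higher direction. They were 1 of 8 receptors for other attractants tested and 2 of 19 signalling genes. No gene of the other lists was called higher, while 3.93% of all 7744 genes were called higher and 3.14% lower. Ltb4r1, the leukotriene B4 receptor, rose from 52.18 CPM (39.42 to 67.76) to 125.4 CPM (110.9 to 141.2), Cd69 from 33.54 to 98.18 CPM, and Grk5, a kinase that desensitises receptors, from 6.522 to 19.36 CPM. Ccr2 was called lower there, from 45.66 CPM (33.78 to 60.36) to 0.9219 CPM (0.1116 to 3.330). In mature DC-like cells Rgs2, which dampens G protein signals, was the 1 signalling gene of 16 tested that was called, from 9.841 CPM (8.960 to 10.79) to 20.38 CPM (19.23 to 21.58), beside 4.90% of all genes called there. Rgs2, and Grk5 in neutrophil-like cells, reached 10 CPM in VD-Mac alone, and Ccr2 in neutrophil-like cells in Co-Mac alone.

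Among the few B lineage-like cells, S1pr1 had 1 UMI in the 17 cells of Co-Mac and 8 UMIs in the 15 cells of VD-Mac, 5.087 CPM (0.1288 to 28.34) and 81.99 CPM (35.40 to 161.6), given as values only. Neutrophil precursor-like cells had 38.05 CPM of Cxcr4 (29.17 to 48.77) in the 56 cells of Co-Mac and 51.65 CPM (36.37 to 71.19) in the 37 of VD-Mac, intervals that overlapped.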
